A study of Mus musculus with 70 samples.

Results

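The comparison set MmSCs (mesenchymal stromal cells of muscle, the PDGFRα-positive connective tissue cells between the fibres) taken 2 h after an intraperitoneal injection of oncostatin M (Osm, n = 2) against MmSCs of mice given PBS intraperitoneally (n = 2). The comparison was chosen with earlier results of these data known. Its 4 libraries, of the 70 in the series, were picked by their labels. All 4 came from uninjured hindlimb muscle of C57BL/6J mice that had no second treatment; the muscle was digested, the cells were sorted by flow cytometry in 2 rounds, and 1000 cells were lysed for each polyA RNA library. The labels give no dose, age or sex, nor do they say how long after PBS the cells were taken, and they do not tie libraries to animals; the p-values therefore rest on the spread among these libraries, which may be technical. Osm was given to the whole animal, so an action on the MmSCs themselves and one through other cells cannot be told apart.

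The same experiment held Osm paired with Il-17A, TNFa or Il-1b, each of these 3 cytokines alone (all at 2 h, n = 2 each), and a mix of the 4 cytokines, taken at 2 h and 8 h in 2 libraries each and at 4 h in 1, for 21 libraries in all. The purpose of the single and paired injections was to take apart the response to the mix. The pairs allowed 3 further tests of Osm, each against the partner cytokine alone, that share no library with each other or with the comparison with PBS. A further set of libraries held MmSCs, CD31+ cells (a gate for endothelial cells), CD45+ cells (leukocytes) and MuSCs (satellite cells) of C57BL/6J mice on day 1 after a cardiotoxin injury and before injury (n = 3 each).

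Osm is a cytokine of the Il-6 family, made mostly by activated leukocytes. It binds Osmr together with gp130 (encoded by Il6st), the signalling chain that the whole family shares, and the JAK kinases bound to these chains phosphorylate STAT3 and, to varying degrees, other STATs such as STAT5. STAT3 induces its own inhibitor Socs3, acute-phase genes and growth-related transcription factors, whereas genes with interferon-response elements are the classical targets of interferon signalling through STAT2 and its partners.

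The MmSC transcriptome 2 h after Osm differed broadly from that with PBS. Of 15965 genes tested, 5482 (34.3%) passed an adjusted p of 0.05 (edgeR quasi-likelihood F-test, Benjamini-Hochberg adjustment over all genes tested): 3014 (18.9%) rose and 2468 (15.5%) fell. Among those that rose, the median log2 change was 1.08, with 586 genes over 4-fold and 136 over 16-fold. Among those that fell, the median was -1.38, with 662 genes over 4-fold and 130 over 16-fold. Interferon-stimulated genes, acute-phase genes, STAT3 targets and genes of ribosome biogenesis stood mostly on the higher side. Genes of the Hedgehog and Notch pathways and several mesenchymal transcription factors stood on the lower side. The counts of list members given below stand beside the shares over all genes, 18.9% higher and 15.5% lower. Those of secreted cytokines and growth factors, cell cycle genes and lipid storage genes were near or below these shares. The 2 Osm libraries lay above both PBS libraries for 5326 genes (33.4%) and below both for 5593 (35%), so a separation of 2 libraries from 2 is not read as a change on its own.

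The 4 libraries held 6255934 to 7256795 counts, and the 2 libraries of each group resembled each other more (Pearson r of log2(CPM + 1) across genes 0.981 in both groups) than those of the other group (0.91 to 0.915). Levels are given as CPM, counts scaled to a common library size with TMM, for each library in turn. The unnamed transcript Gm10800 took 0.624% and 0.474% of counts in the Osm libraries, against 1.41% and 1.64% in the PBS libraries. Across the experiment it took 0.869% to 1.64% in the 7 PBS and mix libraries and 0.359% to 0.738% in the 14 libraries of single cytokines and pairs, 2 ranges that do not overlap. Mitochondrial transcripts took 0.865% and 1.02% in Osm libraries, against 0.575% and 0.667% in PBS libraries, and 20614 and 20337 genes had a count in Osm libraries, against 23154 and 22891 in PBS libraries. A difference in preparation between these sets of libraries, if there was one, and Osm cannot be told apart in the comparison with PBS alone; the 3 tests against a partner cytokine use no PBS or mix library.

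The MmSC identity of the cells was plain in all 4 libraries. The 12 MmSC markers summed to 59300 and 57800 CPM in Osm libraries, against 67000 and 63100 CPM in PBS libraries. Pdgfra had 877 and 961 CPM in Osm libraries, against 869 and 861 CPM in PBS libraries, with overlapping ranges. The leukocyte marker Ptprc was at 0 and 0 CPM in Osm libraries and at 0.381 and 0.818 CPM in PBS libraries, and the 12 leukocyte markers summed to 12.5 and 8.14 CPM with Osm and 5.21 and 4.36 CPM with PBS. Of the 3 leukocyte markers high enough to be tested, the macrophage gene Cd68 rose, with 9.91 and 4.63 CPM in Osm libraries, against 3.43 and 0.955 CPM in PBS libraries (log2 change 1.71 ± 0.56, adjusted p = 0.0233), a call lost without PBS replicate 2 (adjusted p = 0.241) or Osm replicate 1 (0.267). The 7 endothelial markers summed to 111 and 108 CPM with Osm and 219 and 269 CPM with PBS, nearly all of it Tek, while Cdh5 was at 0 in both Osm libraries. The satellite cell marker Pax7 was at 0 in both Osm libraries. With Vcam1, which was lower with Osm, left out of the sum, the 8 satellite cell and myofibre markers summed to 67.9 and 125 CPM with Osm and 43.1 and 64.9 CPM with PBS. Of the 5 that were tested, the muscle creatine kinase gene Ckm was called higher, with 13.5 and 30.1 CPM in Osm libraries, against 8.39 and 11.5 CPM in PBS libraries (log2 change 1.14 ± 0.37, adjusted p = 0.0231), a call lost without PBS replicate 1 (adjusted p = 0.167) or Osm replicate 2 (0.496), and Vcam1 was lower. The 6 mural cell markers summed to 18.2 and 23.2 CPM with Osm and 77.1 and 70.9 CPM with PBS, and the 5 Schwann cell markers to 4.31 and 3.65 CPM with Osm and 4.83 and 4.23 CPM with PBS.

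The comparison with PBS was set beside the 3 tests against a partner cytokine. With Il-17A present, 4519 genes (28.3%) passed, 2579 (16.2%) higher and 1940 (12.2%) lower with Osm. With TNFa present, 2909 genes (18.2%) passed, 1783 (11.2%) higher and 1126 (7.05%) lower. With Il-1b present, 1122 genes (7.03%) passed, 590 (3.7%) higher and 532 (3.33%) lower. Of the 3014 genes that rose against PBS, 1983 also rose beside Il-17A (65.8% of the first list and 76.9% of the second) and 5 fell. Of the 2468 genes that fell against PBS, 1112 also fell beside Il-17A (45.1% and 57.3%) and 36 rose. The shares of the PBS list were lower beside TNFa (1483 of the genes that rose, 49.2%, and 708 of those that fell, 28.7%) and lower again beside Il-1b (470, 15.6%, and 285, 11.5%). In all 4 tests 433 genes (2.71%) rose and 199 (1.25%) fell.

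**Figure D1:**
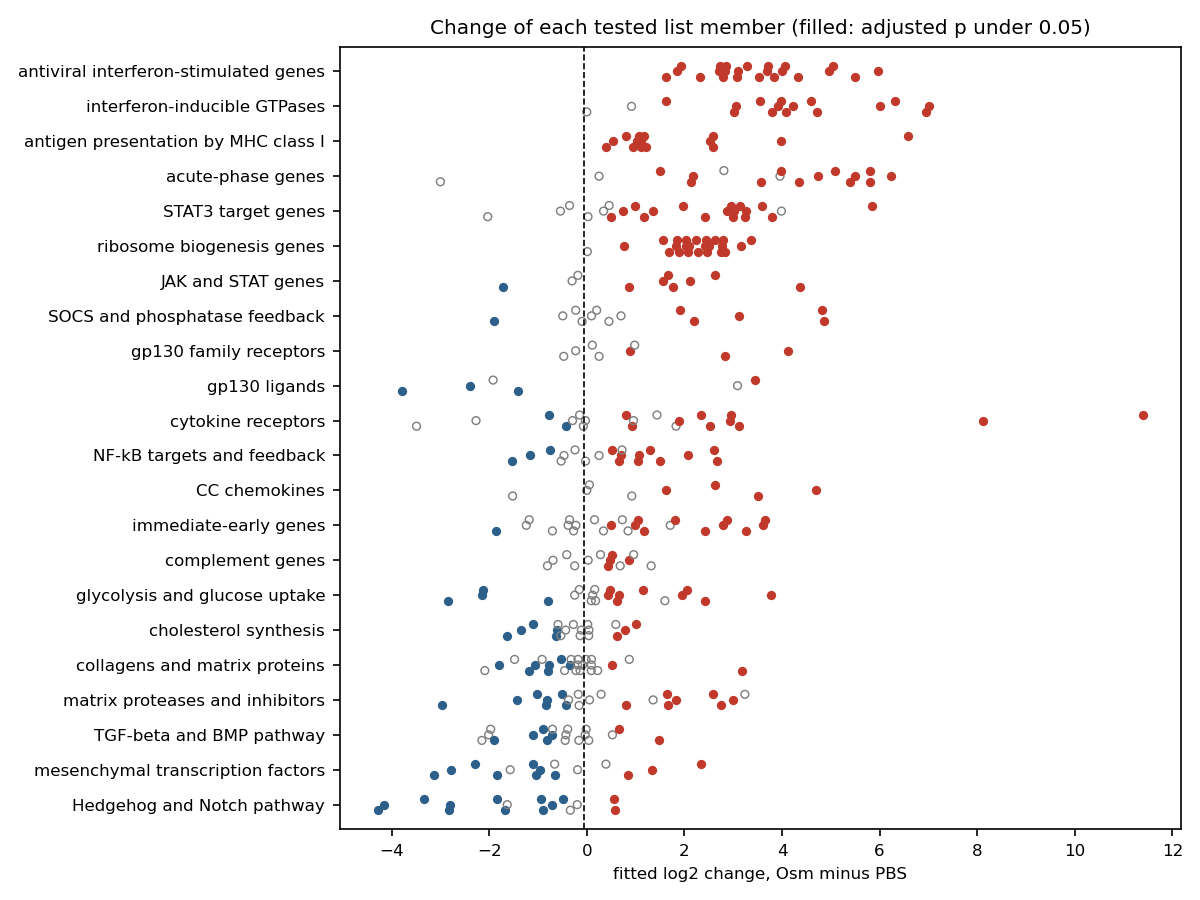
Fitted log2 change, Osm minus PBS, of every tested member of 22 gene lists (x axis), 1 point per gene; filled points passed an adjusted p of 0.05 (red higher, blue lower), open points did not, and the dashed line is the median of all 15965 genes, -0.0529. All 23 antiviral genes are filled on the right, whereas 11 of 16 Hedgehog and Notch genes are filled on the left.

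The receptor chains that bind Osm rose. Osmr (chromosome 15, 6813577 to 6874969, minus strand, GRCm38 in GENCODE M21) had 974 and 1140 CPM in Osm libraries, against 161 and 137 CPM in PBS libraries (log2 change 2.83 ± 0.16 SE, adjusted p = 2.97e-11, edgeR). The gp130 gene Il6st had 1130 and 870 CPM in Osm libraries, against 514 and 569 CPM in PBS libraries (log2 change 0.89 ± 0.15, adjusted p = 8.02e-05). Il31ra, which pairs with Osmr to form the Il-31 receptor, had 10.5 and 13.2 CPM in Osm libraries, against 0.381 and 0.955 CPM in PBS libraries (log2 change 4.13 ± 0.53, adjusted p = 3.31e-06). For all 3 genes both Osm libraries lay above both PBS libraries. Osmr also rose beside Il-17A, TNFa and Il-1b, by 2.09, 0.95 and 0.86 on the log2 scale. The 5 other chains of the family passed in neither direction: Lifr (log2 change -0.23), which binds Lif, Il6ra (0.11), Il11ra1 (0.25), Il27ra (0.98) and Cntfr (-0.47).

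Among the ligands of the family, Lif was lower with Osm. It had 1.01 and 0.421 CPM in Osm libraries, against 11.1 and 9 CPM in PBS libraries (log2 change -3.78 ± 0.51, adjusted p = 6.17e-06), and it was lower beside Il-17A as well (log2 change -4.54), while it did not pass beside TNFa (-0.01) or Il-1b (-0.77). Clcf1, part of a ligand for the ciliary neurotrophic factor receptor, fell (1.72 and 1.40 CPM in Osm libraries, against 9.66 and 6.95 CPM in PBS libraries, log2 change -2.40 ± 0.62, adjusted p = 0.00472). Il6 rose from a base of 3 counts: 33 counts were found in the Osm libraries together, against 3 counts in the PBS libraries, a ratio of 11.9 with an exact 95% counting interval of 3.72 to 60.5 (adjusted p = 0.00215). Il6 remained far below its level with Il-1b, at 1.87 and 2.81 CPM with Osm and 131 and 83.7 CPM with Il-1b. Il11 and Il27 did not pass, and Osm, Cntf, Ctf1 and Ebi3 were too low to be tested.

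Osm itself was at 0 in MmSCs, on day 1 after injury and before it, and in all 4 libraries of the comparison. Its transcript was found in CD45+ cells, with 911, 1390 and 713 CPM on day 1 after injury, against 136, 47.0 and 223 CPM in uninjured muscle, where the groups do not overlap (no test was made in CD45+ cells). Osmr in MmSCs had 366, 409 and 380 CPM on day 1, against 124, 157 and 165 CPM in uninjured muscle (log2 change 1.37 ± 0.28, adjusted p = 0.000365). CD31+ cells held a similar range of Osmr (346, 409 and 357 CPM on day 1, against 427, 395 and 410 CPM in uninjured muscle), MuSCs held less (50.4, 95.8 and 64.2 CPM, against 20.7, 13.8 and 14.8 CPM), and CD45+ cells 3.20 CPM or less.

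**Figure D2:**
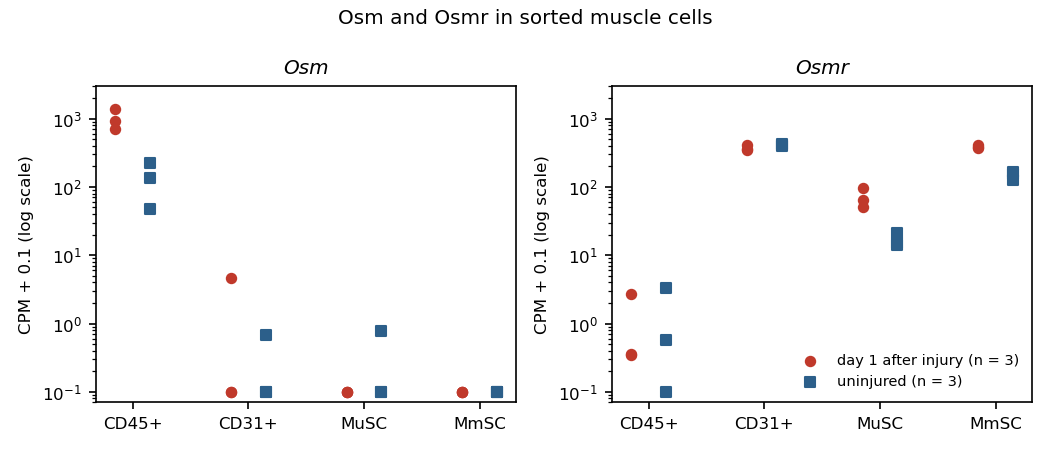
Levels of Osm (left) and Osmr (right) in sorted muscle cells, in CPM with 0.1 added on a log axis; red circles are the 3 libraries of day 1 after injury and blue squares the 3 of uninjured muscle. Osm reaches 713 to 1390 CPM in injured CD45+ cells and 0 in MmSCs, while Osmr is at 366 to 409 CPM in injured and 124 to 165 CPM in uninjured MmSCs.

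Of 10 tested JAK and STAT genes, 7 rose and 1 fell. Stat3 had 946 and 883 CPM in Osm libraries, against 218 and 202 CPM in PBS libraries (log2 change 2.12 ± 0.12, adjusted p = 5.76e-11). Stat2, which acts in type I interferon signalling, had 282 and 294 CPM in Osm libraries, against 44.5 and 49.4 CPM in PBS libraries (log2 change 2.62 ± 0.15, adjusted p = 4.18e-11). Jak3, a kinase best known from lymphocytes, had 19.1 and 16.6 CPM in Osm libraries, against 1.14 and 0.545 CPM in PBS libraries (log2 change 4.36 ± 0.42, adjusted p = 7.73e-08). In each of these the Osm libraries stood well clear of the PBS libraries. Stat5a, Jak1 and Jak2 rose by 1.76, 0.87 and 1.67 on the log2 scale, and all 3 also rose in each of the 3 tests beside a partner cytokine. Exons of Stat3 and Stat5a overlap on opposite strands, so reads of the one can be counted for the other if the counting ignored strand. Tyk2, which serves gp130 and the type I interferon receptor, fell (13.2 and 12.2 CPM in Osm libraries, against 35.0 and 48.1 CPM in PBS libraries, log2 change -1.71 ± 0.23, adjusted p = 5.34e-06) and was lower in the other 3 tests as well. Stat5b (log2 change -0.30) and Stat6 (-0.18) did not pass.

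Of 13 tested feedback inhibitors of this pathway, 5 rose, 1 fell and 7 did not pass, with a list median of 0.455. Socs3, which blocks gp130-bound JAKs (chromosome 11, 117966079 to 117970047, minus strand), had 2960 and 2210 CPM in Osm libraries, against 121 and 55.6 CPM in PBS libraries (log2 change 4.87 ± 0.34, adjusted p = 5.94e-10). Cish, a classical STAT5 target, had 61.5 and 70.9 CPM in Osm libraries, against 1.14 and 3.55 CPM in PBS libraries (log2 change 4.83 ± 0.49, adjusted p = 1.49e-07). Socs2, another STAT5 target, had 336 and 306 CPM in Osm libraries, against 42.0 and 32.0 CPM in PBS libraries (log2 change 3.11 ± 0.21, adjusted p = 4.94e-10). The phosphatases Ptpn1 and Ptpn2, which remove phosphate from JAKs and STATs, rose by 1.92 and 2.19 on the log2 scale. Pias3, named as an inhibitor of STAT3, fell (log2 change -1.91 ± 0.29, adjusted p = 2.65e-05). Socs1 had 21.5 and 10.7 CPM in Osm libraries, against 15.9 and 14.2 CPM in PBS libraries, and these overlap (log2 change 0.10 ± 0.31). Beside Il-17A, Socs1 rose by 2.46 on the log2 scale, and the difference between the 2 effects was 2.36 ± 0.44 (adjusted p = 0.00635). Socs4, Socs5, Socs6 and Socs7 were among the 7 that did not pass.

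**Figure D3:**
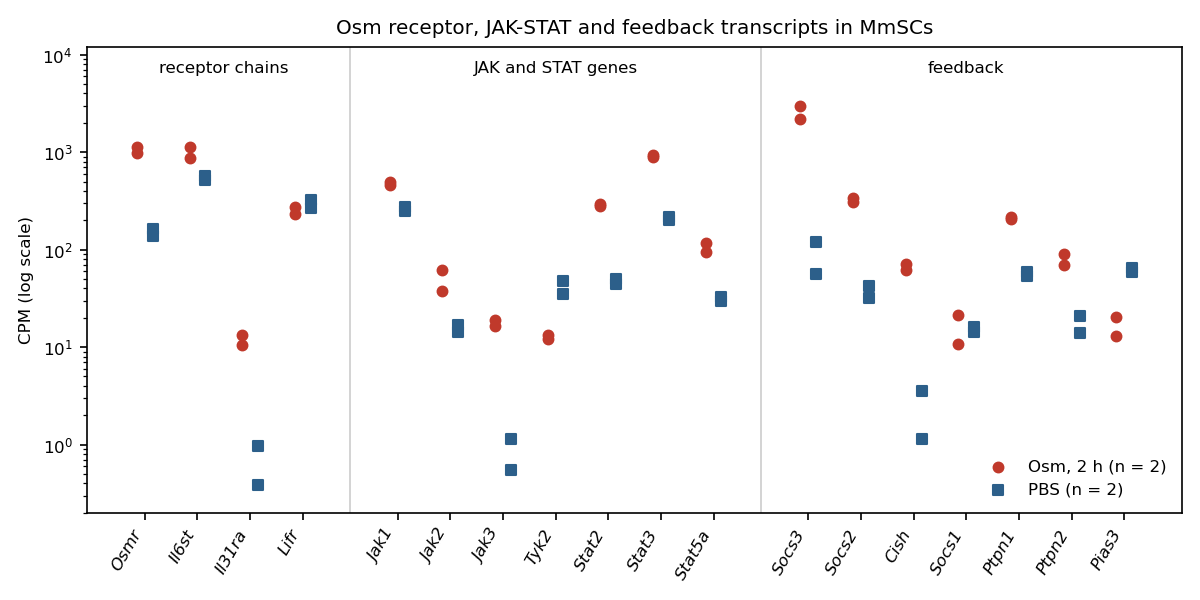
Levels in CPM (log axis) of receptor, JAK, STAT and feedback transcripts in the 2 Osm libraries (red circles) and the 2 PBS libraries (blue squares), 1 point per library. Socs3 stands at 2210 and 2960 CPM with Osm, against 55.6 and 121 CPM with PBS, and for Socs1 the groups overlap.

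Genes known as STAT3 targets in other settings followed. Of 24 tested, 17 rose and 7 did not pass, and the median log2 change of the list was 2.21, against -0.0529 for all genes. Tgm2, a protein crosslinking enzyme, had 2230 and 2400 CPM in Osm libraries, against 186 and 145 CPM in PBS libraries (log2 change 3.80 ± 0.21, adjusted p = 3.16e-11). Bcl3, an atypical IκB protein, had 48.7 and 40.7 CPM in Osm libraries, against 2.67 and 4.77 CPM in PBS libraries (log2 change 3.59 ± 0.25, adjusted p = 5.47e-10). Myc had 432 and 425 CPM in Osm libraries, against 61.5 and 44.6 CPM in PBS libraries (log2 change 3.01 ± 0.19, adjusted p = 1.55e-10). All 3 were separated without overlap. Fosl2 and Junb, subunits of AP-1, rose by 2.88 and 2.43 on the log2 scale, Gadd45g by 3.14, Ier3 by 3.26, Il4ra by 2.95 and the protease inhibitor Timp1 by 3.00. Beside Il-17A 17 members rose and 1 fell, beside TNFa 13 rose and 2 fell, and beside Il-1b 6 rose: Tgm2, Gadd45g, Il4ra and Timp1 were among those 6. Of the 7 members that did not pass with Osm alone, Cebpb (log2 change -2.03), Vegfa (-0.54) and Klf4 (-0.35) lay on the lower side.

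Immediate-early genes, the first genes switched on by growth factor and stress signalling, changed in part. Of 24 tested, 11 rose and 1 fell, several of them shared with the STAT3 list. Atf3 had 78.4 and 68.1 CPM in Osm libraries, against 6.10 and 5.45 CPM in PBS libraries (log2 change 3.66 ± 0.41, adjusted p = 6.26e-07). Egr2 had 76.4 and 92.1 CPM in Osm libraries, against 14.1 and 10.2 CPM in PBS libraries (log2 change 2.79 ± 0.29, adjusted p = 2.40e-07), and Egr1 rose by 1.81 on the log2 scale. Fosb (log2 change -0.27), Nr4a1 (-1.18, adjusted p = 0.0131 where only the Osm and PBS libraries were fitted) and Dusp1 (0.16) did not pass. Enzymatic digestion of tissue is known to induce genes of this list, both those that rose and those that did not pass, and its part was not tested.

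Acute-phase genes, the secreted proteins and metal-binding proteins that Il-6 family cytokines induce in liver, rose in MmSCs: 13 of 17 tested rose and 4 did not pass, with a list median of 3.98. The metallothionein Mt1 had 8930 and 8050 CPM in Osm libraries, against 213 and 162 CPM in PBS libraries (log2 change 5.50 ± 0.29, adjusted p = 1.21e-11), and Mt2 rose by 5.39 on the log2 scale. The zinc importer Slc39a14 had 218 and 230 CPM in Osm libraries, against 18.7 and 18.7 CPM in PBS libraries (log2 change 3.58 ± 0.15, adjusted p = 1.34e-12). The protease inhibitor Serpina3n had 1620 and 1820 CPM in Osm libraries, against 70.3 and 59.3 CPM in PBS libraries (log2 change 4.73 ± 0.33, adjusted p = 8.74e-10). These 3 levels were an order of magnitude or more apart between the groups. Serum amyloid Saa2 had 30.7 and 21.6 CPM in Osm libraries, against 0.509 and 0.136 CPM in PBS libraries (log2 change 6.24 ± 0.67, adjusted p = 3.35e-07), but its near-copy Saa1 can share its reads. Saa3 differed between the Osm libraries themselves, at 0.431 and 21.5 CPM. Leucine-rich α2-glycoprotein Lrg1 gave 119 counts in the Osm libraries and 2 in the PBS libraries, a ratio of 64.2 (95% counting interval 17.4 to 536), and haptoglobin Hp gave 47 and 3 counts, a ratio of 16.9 (5.44 to 84.9) that did not pass in the fit. The long pentraxin Ptx3 rose (54.3 and 42.1 CPM in Osm libraries, against 2.80 and 3.27 CPM in PBS libraries, log2 change 3.98 ± 0.37, adjusted p = 3.88e-08), although it was lower than with Il-1b (log2 difference -4.66). Beside Il-17A 14 members of the list rose, beside TNFa 12, and beside Il-1b 2.

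Of 13 complement genes tested, 4 rose (2 without either Osm replicate 1 or Osm replicate 2, and 2 with Il-17A libraries replacing PBS) and 9 did not pass. The smallest p-values were those of the C1 component gene C1ra (404 and 423 CPM in Osm libraries, against 291 and 299 CPM in PBS libraries, log2 change 0.49 ± 0.11, adjusted p = 0.00198) and the C1 inhibitor Serping1 (4480 and 4320 CPM, against 3250 and 3300 CPM, log2 change 0.42 ± 0.10, adjusted p = 0.00285). Neither passed when the Il-17A libraries stood in place of PBS (log2 changes 0.24 and 0.23).

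Chemokines were split: 1 of 4 neutrophil chemokines, 4 of 8 CC chemokines and 3 of 8 other chemokines rose, and the rest did not pass. The neutrophil chemokine that rose was Cxcl1, with 108 and 87.9 CPM in Osm libraries, against 19.6 and 16 CPM in PBS libraries (log2 change 2.46 ± 0.21, adjusted p = 1.74e-08). Cxcl2 had 0.287 and 0.140 CPM with Osm and 0 and 0 CPM with PBS, Cxcl5 had 0 and 0.843 CPM with Osm and 0.509 and 0.136 CPM with PBS, and Cxcl3 was at 0 in all 4. These 3 were thus near or at 0, and all 4 were lower with Osm than with Il-1b, with a log2 difference of -4.91 for Cxcl1 and of -9.71 or further below 0 for the others. The monocyte chemokine Ccl7 had 385 and 400 CPM in Osm libraries, against 12.8 and 17.3 CPM in PBS libraries (log2 change 4.70 ± 0.38, adjusted p = 5.43e-09). Ccl2, which acts on the same receptor, had 65.2 and 109 CPM in Osm libraries, against 104 and 64.0 CPM in PBS libraries, and did not pass (log2 change 0.05). The eosinophil chemokine Ccl11 had 1420 and 1250 CPM in Osm libraries, against 413 and 455 CPM in PBS libraries (log2 change 1.62 ± 0.18, adjusted p = 6.26e-07), and Ccl8 and Ccl19 rose by 2.63 and 3.51 on the log2 scale. With the Il-17A libraries in place of PBS, Ccl11 did not pass (log2 change 0.30), Cxcl1 was at -0.53 (adjusted p = 0.0501) and Ccl2 was lower with Osm (-2.12, adjusted p = 0.000483). Of the interferon-inducible chemokines, Cxcl9 had 15.5 and 28.4 CPM in Osm libraries, against 3.69 and 0.818 CPM in PBS libraries (log2 change 3.25 ± 0.53, adjusted p = 5.93e-05), and Cxcl10 had 11.6 and 11.1 CPM, against 1.14 and 0.136 CPM (log2 change 4.07 ± 0.70, adjusted p = 0.000108). Both rose in all 4 tests of Osm. Cxcl14, a chemokine that stromal cells make without stimulation, had 2550 and 2010 CPM in Osm libraries, against 1240 and 1030 CPM in PBS libraries (log2 change 1.01 ± 0.17, adjusted p = 0.000122).

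NF-κB targets and feedback genes rose in part with Osm and stood lower than with Il-1b or TNFa. Against PBS, 10 of 19 rose and 3 fell. With the Il-17A libraries in place of PBS, 6 rose and 5 fell. Beside Il-17A 9 rose and 3 fell, and beside TNFa 6 rose and 0 fell in edgeR (8 and 1 in DESeq2). Beside Il-1b 1 rose and 3 fell. The mitochondrial superoxide dismutase Sod2 had 288 and 282 CPM in Osm libraries, against 41.3 and 52.2 CPM in PBS libraries (log2 change 2.61 ± 0.18, adjusted p = 4.94e-10), and Nfkbiz, which cooperates with NF-κB on secondary response genes, had 77.3 and 75.7 CPM, against 17 and 6.95 CPM (log2 change 2.66 ± 0.26, adjusted p = 8.88e-08). The adhesion molecule Icam1 rose by 2.07 on the log2 scale. All 19 were lower with Osm than with Il-1b and 16 were lower than with TNFa (910 genes, 5.7% of those tested, were lower with Osm than with Il-1b, and 1256, 7.87%, lower than with TNFa). Among the 3 that fell against PBS was the adhesion molecule Vcam1, with 21.4 and 34.7 CPM in Osm libraries, against 42.5 and 52.4 CPM in PBS libraries (log2 change -0.76 ± 0.21, adjusted p = 0.00762), a call lost without PBS replicate 2 (-0.61, adjusted p = 0.0791) or Osm replicate 1 (-0.46, adjusted p = 0.145).

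Of 21 cytokine receptors tested, from mixed families, 10 rose and 2 fell. Il17ra had 414 and 407 CPM in Osm libraries, against 51.6 and 55.4 CPM in PBS libraries (log2 change 2.94 ± 0.15, adjusted p = 6.78e-12). Il15ra had 266 and 275 CPM in Osm libraries, against 32.4 and 29.9 CPM in PBS libraries (log2 change 3.12 ± 0.14, adjusted p = 1.43e-12). Il13ra1, Il4ra and the TNF receptor Tnfrsf1a rose by 2.52, 2.95 and 2.34 on the log2 scale, and these 3 and Il17ra rose in all 4 tests. The β chain genes of the Il-3 receptor, which lie side by side on chromosome 15, were almost absent from PBS libraries. Csf2rb2 gave 590 counts in the Osm libraries and 2 in the PBS libraries, a ratio of 318 (95% counting interval 87.7 to 2630). Csf2rb gave 721 and 0 counts, at least 130-fold higher against a floor of 3 counts per library. The Osm libraries differed between themselves for Csf2rb, at 9.48 and 92.0 CPM, and the 2 genes are near-copies whose reads can be split between them. Beside these levels of Csf2rb, a gene known from leukocytes, the leukocyte markers summed to 12.5 and 8.14 CPM in Osm libraries, most of it Cd68; the part of other cells in it was not tested.

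Among 20 secreted cytokines and growth factors tested, 5 rose and 2 fell; 3 rose without PBS replicate 1 or Osm replicate 1, and 2 without PBS replicate 2. The alarmin Il33 had 906 and 831 CPM in Osm libraries, against 107 and 130 CPM in PBS libraries (log2 change 2.87 ± 0.27, adjusted p = 4.85e-08), and rose in all 4 tests. The neurotrophin Bdnf gave 136 counts in the Osm libraries and 1 in the PBS libraries, a ratio of 147 (95% counting interval 25.9 to 5840), and it too rose in all 4 tests. Insulin-like growth factor Igf1 had 429 and 427 CPM in Osm libraries, against 300 and 284 CPM in PBS libraries (log2 change 0.55 ± 0.18, adjusted p = 0.0198), a call lost without any 1 of the 4 libraries (adjusted p 0.0769 to 0.13). Parathyroid hormone-like hormone Pthlh had 1.87 and 4.49 CPM in Osm libraries, against 47.7 and 50.6 CPM in PBS libraries (log2 change -3.94 ± 0.47, adjusted p = 1.50e-06).

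All 23 tested antiviral interferon-stimulated genes rose with Osm against PBS, beside Il-17A and beside TNFa, and 22 also rose beside Il-1b. Ifit1, which binds foreign RNA caps (chromosome 19, 34640871 to 34650009, plus strand), had 532 and 732 CPM in Osm libraries, against 21.6 and 16.5 CPM in PBS libraries (log2 change 5.05 ± 0.26, adjusted p = 1.21e-11). The ubiquitin-like modifier Isg15 had 117 and 106 CPM in Osm libraries, against 3.31 and 3.82 CPM in PBS libraries (log2 change 4.96 ± 0.28, adjusted p = 2.76e-11). Oasl2 had 470 and 513 CPM in Osm libraries, against 42.3 and 42.3 CPM in PBS libraries (log2 change 3.54 ± 0.20, adjusted p = 2.54e-11). In each of these the 2 groups lay far apart. Trim30a, Rtp4 and Parp9 rose by 3.84, 4.01 and 3.28 on the log2 scale; Parp9 overlaps its partner Dtx3l (2.80) on the other strand. The direct comparison with the other single cytokines put 22 of the 23 higher with Osm than with Il-1b, and all 23 higher than with TNFa and than with Il-17A.

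The interferon-inducible GTPases, which attack the vacuoles of intracellular pathogens, rose in 15 of 17 cases, with a list median of 3.99. Igtp (chromosome 11, 58199556 to 58207591, plus strand) had 347 and 417 CPM in Osm libraries, against 14.2 and 15 CPM in PBS libraries (log2 change 4.71 ± 0.18, adjusted p = 4.41e-13). Iigp1 had 1110 and 1640 CPM in Osm libraries, against 13.6 and 8.46 CPM in PBS libraries (log2 change 6.95 ± 0.27, adjusted p = 4.41e-13). Gbp2, a guanylate-binding protein, had 1200 and 1670 CPM in Osm libraries, against 58.1 and 60.1 CPM in PBS libraries (log2 change 4.60 ± 0.21, adjusted p = 3.02e-12). These were among the smallest p-values in the whole comparison. Ifi47, Irgm1, Irgm2 and Gbp7 rose by 7.01, 3.91, 3.56 and 4.09 on the log2 scale, and Tgtp2 gave 170 counts in the Osm libraries and 2 in the PBS libraries, a ratio of 91.7 (95% counting interval 25 to 764). The family holds near-copies (Tgtp1 with Tgtp2, the Gbp cluster on chromosome 3) and exons of Igtp and Irgm2 overlap on 1 strand, so single members are less certain than the group. The 2 that did not pass were Gbp8 (log2 change 0.92) and Tgtp1, which had no count in the 4 libraries.

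Promoters of part of these genes hold motifs that the 2 branches of the pathway are known to use. The 250 bases before the RefSeq start of Igtp (chr11:58199306-58199555, plus strand), Irgm2 (chr11:58214727-58214976, plus strand), Tgtp2 (chr11:49064213-49064462, minus strand), Gbp7 (chr3:142530086-142530335, plus strand) and Isg15 (chr4:156200819-156201068, minus strand), all in GRCm38.p6, are shown because they hold TTCNNNGAA, the form of a STAT dimer site, or GAAA, any 2 bases, GAAA, the core of an interferon-response element (here the paired GAAA). Capitals mark both motifs; on the opposite strand the second reads TTTC, any 2 bases, TTTC, while the first reads the same on both.
Igtp: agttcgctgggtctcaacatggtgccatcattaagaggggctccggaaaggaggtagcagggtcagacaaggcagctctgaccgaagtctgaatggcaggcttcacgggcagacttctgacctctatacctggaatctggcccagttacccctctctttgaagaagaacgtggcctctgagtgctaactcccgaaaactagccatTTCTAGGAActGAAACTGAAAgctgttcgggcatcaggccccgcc
Irgm2: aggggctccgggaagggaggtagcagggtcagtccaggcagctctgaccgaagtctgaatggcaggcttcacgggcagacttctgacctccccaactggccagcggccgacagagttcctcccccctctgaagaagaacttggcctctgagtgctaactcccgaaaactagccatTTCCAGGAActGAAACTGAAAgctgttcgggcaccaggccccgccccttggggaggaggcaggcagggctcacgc
Tgtp2: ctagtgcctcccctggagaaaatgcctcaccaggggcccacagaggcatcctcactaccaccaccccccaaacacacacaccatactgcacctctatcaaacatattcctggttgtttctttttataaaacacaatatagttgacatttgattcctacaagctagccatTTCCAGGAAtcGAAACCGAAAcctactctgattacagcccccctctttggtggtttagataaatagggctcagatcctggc
Gbp7: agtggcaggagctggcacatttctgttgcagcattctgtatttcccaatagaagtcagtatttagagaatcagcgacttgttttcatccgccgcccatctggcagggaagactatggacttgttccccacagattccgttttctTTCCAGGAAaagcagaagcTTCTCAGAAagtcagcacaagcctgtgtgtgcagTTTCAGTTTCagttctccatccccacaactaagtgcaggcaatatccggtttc
Isg15: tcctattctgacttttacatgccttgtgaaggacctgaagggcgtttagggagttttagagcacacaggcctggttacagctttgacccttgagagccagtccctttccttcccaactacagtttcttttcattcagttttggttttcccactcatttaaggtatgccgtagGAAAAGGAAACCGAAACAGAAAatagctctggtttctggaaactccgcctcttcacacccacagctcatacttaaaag

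In Igtp the first base of TTCNNNGAA lay 45 bases before the start and that of the paired GAAA 34 bases before it. In Irgm2 these distances were 75 and 64 bases, and in Tgtp2 81 and 70 bases. Gbp7 held TTCNNNGAA at 106 and 87 bases and the second motif at 53 bases, and Isg15 held 3 overlapping copies of the second motif, at 78, 72 and 66 bases, and none of the first. Of the interferon-inducible GTPases with a RefSeq promoter, 9 of 10 held the paired GAAA and 6 held TTCNNNGAA. Of the antiviral genes, 7 and 3 of 16 did. TTCNNNGAA stood in 3 of 21 STAT3 target genes, 3 of 14 acute-phase genes, 1 of 9 feedback inhibitors and 0 of 10 JAK and STAT genes. It stood in 4 of 14 NF-κB targets and 6 of 20 cytokine receptors. Over all 11025 tested genes matched by symbol, the paired GAAA stood in 2.63% and TTCNNNGAA in 5.97% of these windows. Among genes that rose with Osm the shares were 4.53% and 8.01% (n = 2297), among genes that fell 1.71% and 4% (n = 1875), and among genes that did not pass 2.25% and 5.82% (n = 6853). A match of letters is a description and shows no binding.

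Antigen presentation by MHC class I rose along the whole chain of steps, 15 of 15 tested genes. Nlrc5, the transactivator of class I genes, had 53.9 and 51.0 CPM in Osm libraries, against 0.636 and 0.409 CPM in PBS libraries (log2 change 6.59 ± 0.33, adjusted p = 7.81e-12). The peptide transporter Tap1 had 363 and 456 CPM in Osm libraries, against 25.6 and 26.5 CPM in PBS libraries (log2 change 3.98 ± 0.19, adjusted p = 4.88e-12). The immunoproteasome subunits Psmb8 and Psmb9 rose by 2.58 and 2.59 on the log2 scale; Psmb9 overlaps Tap1 on the other strand. The light chain B2m had 905 and 950 CPM in Osm libraries, against 434 and 423 CPM in PBS libraries (log2 change 1.12 ± 0.12, adjusted p = 2.41e-07). Beside Il-17A 14 of the 15 rose, beside TNFa 12, and beside Il-1b 8. Of 8 interferon regulatory factors, 5 rose and 1 fell: Irf7 rose by 3.66 and Irf9 by 2.15 on the log2 scale, Irf2 and Irf3 by 0.94 and 0.66 (Irf3 0.23 with Il-17A libraries replacing PBS, adjusted p = 0.272), and Irf5 had 1.87 and 0.843 CPM in Osm libraries, against 16.1 and 18.5 CPM in PBS libraries (log2 change -3.66 ± 0.53, adjusted p = 1.61e-05). Irf1 did not pass against PBS in the fit of all 21 libraries and passed where only the Osm and PBS libraries were fitted (log2 change 0.48, adjusted p = 0.0178).

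**Figure D4:**
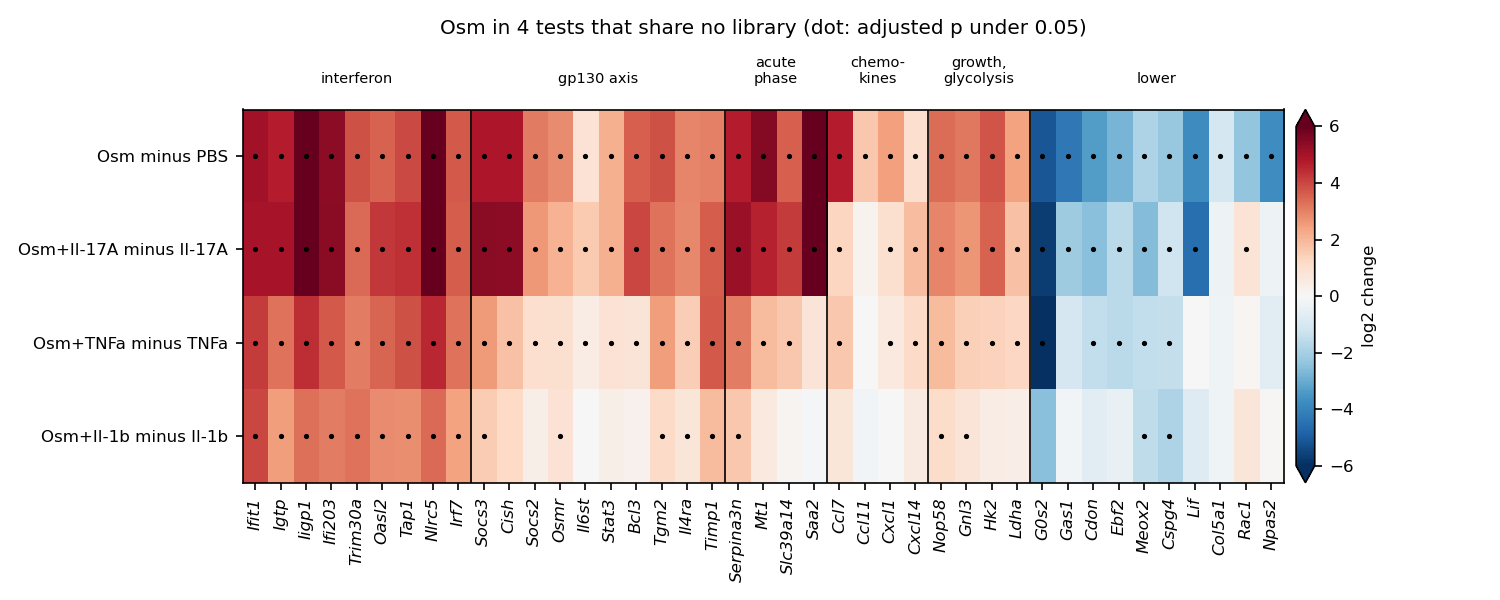
Fitted log2 change with Osm in 4 tests that share no library (rows; red higher, blue lower with Osm), for genes named in the text (columns, by theme); a dot marks an adjusted p under 0.05. The interferon columns are dotted in all 4 rows, whereas Rac1 is lower against PBS (-2.39) and higher beside Il-17A (0.80).

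Several of the highest changes lay outside these lists. The lysosomal ion channel Mcoln2 had 645 and 652 CPM in Osm libraries, against 6.23 and 3.14 CPM in PBS libraries (log2 change 7.10 ± 0.28, adjusted p = 4.41e-13), and it rose in all 4 tests. Fgl2, a fibrinogen-like protein with prothrombinase activity (chromosome 5, 21372642 to 21378374, plus strand), had 8130 and 6790 CPM in Osm libraries, against 132 and 187 CPM in PBS libraries (log2 change 5.55 ± 0.29, adjusted p = 9.96e-12). Fgl2 was higher with Osm than with Il-1b, TNFa and Il-17A too, by 4.15, 4.98 and 5.61 on the log2 scale. Endothelial lipase, Lipg, had 59.8 and 37.9 CPM in Osm libraries, against 0 and 0.545 CPM in PBS libraries (log2 change 7.43 ± 0.53, adjusted p = 1.83e-09). The metalloreductase Steap1 had 55.6 and 47.0 CPM in Osm libraries, against 0.509 and 0.545 CPM in PBS libraries (log2 change 6.56 ± 0.66, adjusted p = 1.27e-07). The tachykinin precursor Tac1 gave 248 counts in the Osm libraries and 3 in the PBS libraries, a ratio of 89.2 (95% counting interval 30.2 to 436). Ifi208, of the interferon-inducible p200 family, gave 222 and 0 counts, at least 39.9-fold higher against the floor of 3 counts per library, and its relative Ifi203 rose by 5.35 on the log2 scale, with the overlapping Mndal a possible source of shared reads.

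At the lower end stood genes of several functions. The lipolysis inhibitor G0s2 had 1.58 and 0.843 CPM in Osm libraries, against 44.2 and 43.1 CPM in PBS libraries (log2 change -5.15 ± 0.55, adjusted p = 4.49e-07). The prokineticin receptor Prokr1 had 3.16 and 1.40 CPM in Osm libraries, against 40.6 and 46.4 CPM in PBS libraries (log2 change -4.24 ± 0.40, adjusted p = 5.41e-08). The nucleotide receptor P2ry1 had 5.03 and 6.18 CPM in Osm libraries, against 73.0 and 70.9 CPM in PBS libraries (log2 change -3.68 ± 0.29, adjusted p = 5.04e-09), and it was lower in all 4 tests. In these 3 genes the groups were an order of magnitude or more apart. Other genes at this end fell against PBS and passed in fewer of the other tests: Ccdc102a (log2 change -4.41), a coiled-coil protein gene, the clock-related transcription factor Npas2 (-3.72), Phlda3 (-3.63) and Rnf187 (-3.56), of which Npas2, Phlda3 and Rnf187 did not pass beside any partner cytokine.

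Genes of ribosome biogenesis rose together. Of 24 tested, 23 rose against PBS, 24 beside Il-17A, 24 beside TNFa and 9 beside Il-1b, with a list median of 2.25 against PBS. The count beside Il-1b was 17 in DESeq2 and 22 at an unadjusted p under 0.05 in edgeR. Nop58 had 451 and 389 CPM in Osm libraries, against 43.4 and 37.6 CPM in PBS libraries (log2 change 3.37 ± 0.17, adjusted p = 8.35e-12). Gnl3, nucleostemin, had 263 and 261 CPM in Osm libraries, against 27.6 and 30.5 CPM in PBS libraries (log2 change 3.17 ± 0.15, adjusted p = 4.37e-12). Nop56 and Nolc1 rose by 2.79 and 2.63 on the log2 scale. Fbl was the member that did not pass (log2 change 0.01). Set against Il-1b directly, 1 member was lower with Osm and 23 did not pass, whereas 22 were higher with Osm than with TNFa and 22 higher than with Il-17A.

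Genes of glycolysis and glucose uptake changed in part. Of 20 tested, 9 rose and 4 fell; 5 rose without PBS replicate 1, 4 without PBS replicate 2, and 5 with Il-17A libraries replacing PBS. Hexokinase Hk2 had 239 and 214 CPM in Osm libraries, against 18.4 and 14.6 CPM in PBS libraries (log2 change 3.77 ± 0.22, adjusted p = 6.18e-11). Lactate dehydrogenase Ldha had 1560 and 1470 CPM in Osm libraries, against 288 and 275 CPM in PBS libraries (log2 change 2.43 ± 0.16, adjusted p = 3.02e-10). The glucose transporter Slc2a1 and the regulator Pfkfb3 rose by 2.06 and 1.96 on the log2 scale. Pdk2, an inhibitor of pyruvate dehydrogenase, had 8.62 and 8.14 CPM in Osm libraries, against 58.5 and 61.4 CPM in PBS libraries (log2 change -2.84 ± 0.27, adjusted p = 5.10e-08), and Pfkm fell by 2.15 on the log2 scale. The aldolase gene Aldoa had 708 and 730 CPM in Osm libraries, against 543 and 521 CPM in PBS libraries (log2 change 0.43 ± 0.11, adjusted p = 0.00394), a call lost without PBS replicate 2 (adjusted p = 0.0511) and against the Il-17A libraries (0.326). Gapdh (log2 change 0.12), Pkm (-0.15) and Eno1 (0.18) did not pass.

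Chaperone and unfolded protein response genes rose in part: 7 of 14 tested rose and 2 fell. With Il-17A libraries replacing PBS, 3 rose and 4 fell. Hspa8 had 1600 and 1180 CPM in Osm libraries, against 308 and 303 CPM in PBS libraries (log2 change 2.18 ± 0.16, adjusted p = 1.41e-09), and Hsp90aa1 rose by 2.16 on the log2 scale. The stress-inducible Hspa1a (log2 change -0.51) and Hspa1b (-1.03) did not pass. Cholesterol synthesis was mixed against PBS, with 3 of 18 higher and 5 lower (2 lower without Osm replicate 2 and 1 lower without PBS replicate 2), while beside Il-17A 9 of the 18 were higher, 2 lower and 7 did not pass, and beside TNFa 9 were higher and 9 did not pass. Of 15 cell cycle genes 2 rose and 1 fell: Pcna rose (log2 change 1.05, and 0.45 with Il-17A libraries replacing PBS, adjusted p = 0.0646), Ccne1 gave 82 counts in the Osm libraries and 0 in the PBS libraries, at least 14.7-fold higher against the floor, and Cdc25b fell by 2.96 on the log2 scale.

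Genes of the Hedgehog and Notch pathways fell: 11 of 16 tested were lower and 2 higher, with a list median of -1.29; 6 were lower when the Il-17A libraries stood in place of PBS. Gas1, a co-receptor for Hedgehog ligands (chromosome 13, 60174405 to 60177365, minus strand), had 3.45 and 8.14 CPM in Osm libraries, against 116 and 111 CPM in PBS libraries (log2 change -4.28 ± 0.48, adjusted p = 6.43e-07). Cdon, another co-receptor, had 6.89 and 6.32 CPM in Osm libraries, against 58.7 and 75.7 CPM in PBS libraries (log2 change -3.34 ± 0.39, adjusted p = 1.04e-06). The Hedgehog transcription factor Gli2 had 4.45 and 6.88 CPM in Osm libraries, against 41.4 and 38.0 CPM in PBS libraries (log2 change -2.80 ± 0.35, adjusted p = 2.78e-06). Each of these was clearly lower in both Osm libraries. The Notch target Heyl fell by 4.15 on the log2 scale and Hes1 by 2.83, and so did Ptch1 and Gli1, both target genes of Hedgehog signalling (log2 changes -1.68 and -1.84). Hes1, Ptch1 and Gli1 did not pass when the Il-17A libraries stood in place of PBS (-0.68, -0.75 and -0.93). Those that rose were the co-receptor Boc (log2 change 0.56) and the Notch ligand Jag1 (0.57); both calls were lost without Osm replicate 2 (adjusted p = 0.124 for Boc and 0.423 for Jag1) or PBS replicate 1 (0.0792 and 0.294), that of Boc also without PBS replicate 2 (0.073), and that of Jag1 in DESeq2 (0.0697) and against the Il-17A libraries (0.891). Beside Il-17A 5 members fell and 1 rose, beside TNFa 6 fell and 1 rose, and beside Il-1b 0 passed in edgeR and 0 in DESeq2 (at an unadjusted p under 0.05, 1 fell and 2 rose).

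Of 15 mesenchymal transcription factors tested, 8 fell and 3 rose. Ebf2 had 27.0 and 29.9 CPM in Osm libraries, against 173 and 218 CPM in PBS libraries (log2 change -2.78 ± 0.23, adjusted p = 6.84e-09). Hic1, known for holding these cells quiescent, had 5.03 and 2.67 CPM in Osm libraries, against 34.7 and 33.1 CPM in PBS libraries (log2 change -3.14 ± 0.40, adjusted p = 3.74e-06). Meox2 had 61.0 and 75.5 CPM in Osm libraries, against 233 and 261 CPM in PBS libraries (log2 change -1.85 ± 0.16, adjusted p = 1.90e-08), and it fell in all 4 tests. Prrx1 and Twist2 fell by 1.1 and 2.29 on the log2 scale, the call of Twist2 being lost without Osm replicate 1 (adjusted p = 0.182) or PBS replicate 1 (0.0958). Runx1, Osr1 and Tbx15 rose, by 2.34, 1.34 and 0.85 on the log2 scale.

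Of the 12 MmSC markers, 2 rose against PBS, 2 fell and 8 did not pass. These shares were near those over all genes (18.9% higher and 15.5% lower). Beside Il-17A 2 rose and 6 fell, where 16.2% of all genes were higher and 12.2% lower. With the Il-17A libraries in place of PBS, 3 rose and 4 fell (15.1% and 11% of all genes). Beside TNFa 2 rose and 2 fell, and beside Il-1b 1 rose and 0 fell in edgeR (1 fell at an unadjusted p under 0.05). Ly6a, which encodes Sca-1 and is interferon-inducible, had 3580 and 3710 CPM in Osm libraries, against 1230 and 1350 CPM in PBS libraries (log2 change 1.50 ± 0.13, adjusted p = 2.04e-08), and rose in all 4 tests. Cd248, endosialin, had 360 and 196 CPM in Osm libraries, against 1260 and 1560 CPM in PBS libraries (log2 change -2.34 ± 0.31, adjusted p = 5.43e-06), and Pdgfrb fell by 1.28. The mural cell marker Cspg4, which also fell (11.1 and 13.8 CPM in Osm libraries, against 57.6 and 62.2 CPM in PBS libraries, log2 change -2.27 ± 0.34, adjusted p = 2.55e-05), and Tek (log2 change -1.17) moved in the same direction as Pdgfrb; the part of mural or endothelial cells in these changes was not tested, and fewer such cells and less RNA per cell cannot be told apart in bulk libraries.

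Of 25 collagens and matrix proteins, 7 fell (4 without Osm replicate 1) and 2 rose, with a list median of -0.222; with Il-17A libraries replacing PBS 5 rose and 0 fell in edgeR (2 fell at an unadjusted p under 0.05 and 1 in DESeq2). Col5a1 had 607 and 650 CPM in Osm libraries, against 1360 and 1250 CPM in PBS libraries (log2 change -1.06 ± 0.16, adjusted p = 3.87e-05), a call lost with the Il-17A libraries in place of PBS (-0.38). The main fibrillar collagen genes did not pass, Col1a1 with a log2 change of -0.46 and Col3a1 with -0.32. Col1a1 passed where only the Osm and PBS libraries were fitted (adjusted p = 0.027), and Col3a1 was higher with Osm when the Il-17A libraries stood in place of PBS (0.58, adjusted p = 0.0347). The matricellular protein gene Thbs1 had 3380 and 2440 CPM in Osm libraries, against 396 and 242 CPM in PBS libraries (log2 change 3.19 ± 0.35, adjusted p = 4.83e-07), and rose in all 4 tests. Beside Il-17A 2 members rose and 1 fell. Of 21 proteases and inhibitors, 7 rose and 7 fell (4 fell without PBS replicate 2, and 3 with Il-17A libraries replacing PBS). The aggrecanase Adamts4 had 218 and 246 CPM in Osm libraries, against 48.8 and 19.5 CPM in PBS libraries (log2 change 2.76 ± 0.30, adjusted p = 3.81e-07), and the urokinase receptor Plaur rose by 2.58 on the log2 scale, while Mmp11 fell by 1.43 and the collagenase activator Mmp14 by 1.03 (-0.01 with Il-17A libraries replacing PBS). Of 19 genes of the TGF-β and BMP pathway 2 rose and 5 fell: the BMP target Id3 rose by 1.48 on the log2 scale, and the ligand Bmp2 had 12.8 and 8.00 CPM in Osm libraries, against 43.5 and 34.0 CPM in PBS libraries (log2 change -1.90 ± 0.35, adjusted p = 0.00023).

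Set directly against the other single cytokines, Osm differed least from Il-1b by count: 1540 genes (9.65%) passed, 630 (3.95%) higher and 910 lower, against 2847 (17.8%) for TNFa, 1591 (9.97%) of them higher, and 4167 (26.1%) for Il-17A, 2410 (15.1%) higher and 1757 (11%) lower. These comparisons share the Osm libraries with each other and with the comparison with PBS. Higher with Osm than with PBS and each of the 3 other cytokines were 365 genes (2.29%), and lower than with all 4 were 297 (1.86%). Socs3 was among the first, 1.78, 2.90 and 5.17 higher on the log2 scale than with Il-1b, TNFa and Il-17A. So were Igtp (2.91, 3.36 and 4.95) and the nucleotide kinase Cmpk2 (3.77, 2.96 and 3.08). Osmr was not (0.06 against Il-1b, which did not pass), nor were Mt1 (0.15 against Il-1b) and Stat5a, which was lower than with Il-1b (-1.44). Tnfrsf1a was 1.68, 1.80 and 2.47 higher than with these 3 cytokines. Among the 297 was the protein kinase C gene Prkcd, with 10.3 and 7.72 CPM in Osm libraries, against 43.2 and 39.8 CPM in PBS libraries, and with log2 differences of -3.42, -3.90 and -2.44 from Il-1b, TNFa and Il-17A.

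**Figure D5:**
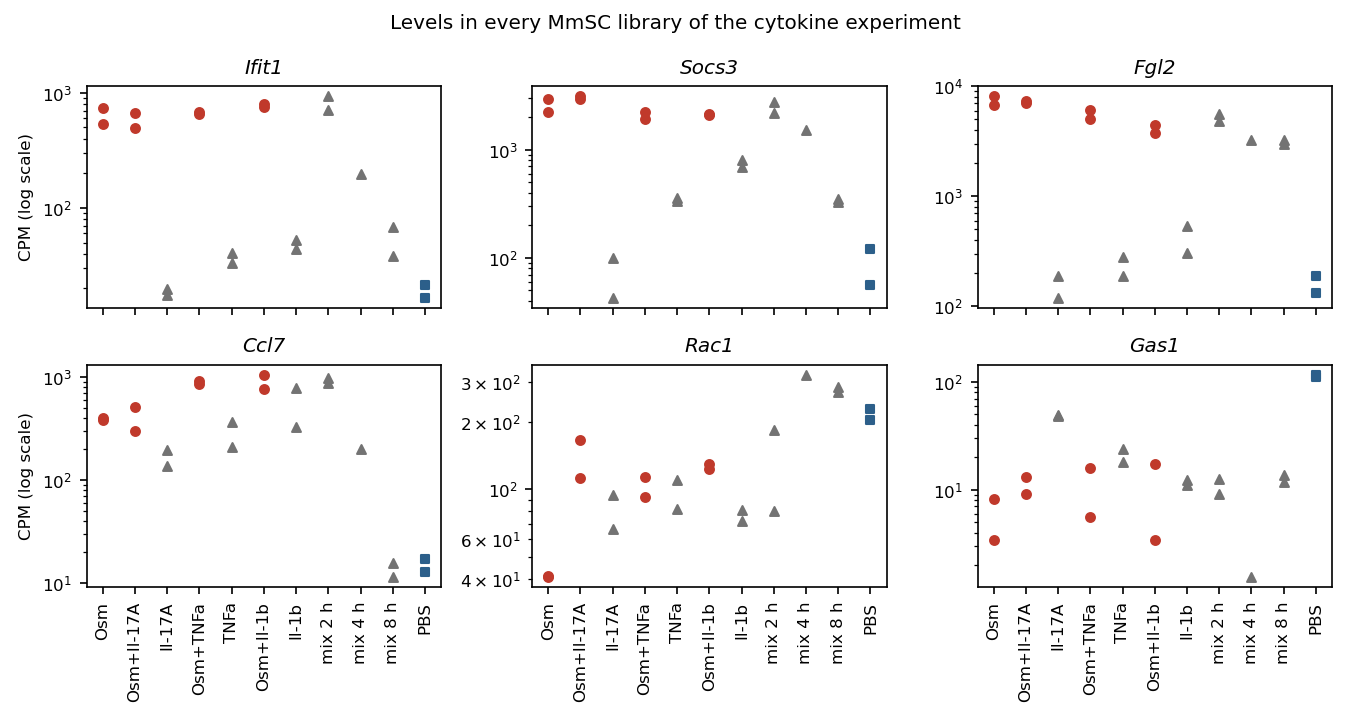
Levels in CPM (log axis) of 6 genes in every MmSC library of the cytokine experiment, 1 point per library; red circles received Osm without the full mix, grey triangles did not or received the mix, and blue squares are PBS. At 2 h Ifit1 (491 CPM or more) and Fgl2 (3760 CPM or more) are high in every group given Osm, Ccl7 is also high with Il-17A alone, and Rac1 is lowest with Osm alone.

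Whether Osm acted differently beside Il-17A was tested as the difference between the 2 effects, which 409 genes (2.56%) passed, 305 (1.91%) in the positive and 104 (0.651%) in the negative direction. For Ccl7 the effect beside Il-17A was smaller, a difference of -3.43 on the log2 scale (1.27 beside Il-17A, 4.70 against PBS), and Il-17A alone gave 138 and 196 CPM, against 12.8 and 17.3 CPM with PBS. Ccl11 and Cxcl1 had the same pattern, with differences of -1.40 and -1.50. For the small GTPase Rac1 the effects had opposite signs: 40.8 and 41.1 CPM in Osm libraries, against 227 and 203 CPM in PBS libraries (log2 change -2.39 ± 0.28, adjusted p = 1.04e-06), and a log2 change of 0.80 beside Il-17A, a difference of 3.19. Exons of Rac1 and Daglb overlap on opposite strands. Npas2, Hes1 and Rnf187 fell against PBS and did not pass beside Il-17A, with differences of 3.40, 3.48 and 4.41. Gm10800, which separates the PBS and mix libraries from the rest, had a difference of 1.87 in the same test, and its part in the positive differences was not tested.

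Injury on day 1 moved part of the same genes in MmSCs. Of 16374 genes tested there, 6852 (41.8%) passed, 2981 (18.2%) higher and 3871 (23.6%) lower on day 1. Of the 3014 genes that rose with Osm, 1528 rose with injury (50.7% of the Osm list and 51.3% of the injury list) and 269 fell; of the 2468 that fell with Osm, 1242 fell with injury (50.3% and 32.1%) and 118 rose. Of the genes of ribosome biogenesis 24 of 24 rose with injury, Nop56 with a log2 change of 2.54 ± 0.15 (adjusted p = 1.99e-11), and of those of glycolysis and glucose uptake 12 of 20 rose and 3 fell, with Ldha at 2.30 ± 0.12 (adjusted p = 4.94e-12). Of 15 acute-phase genes tested there 10 rose and 1 fell, with Mt1 at 2.77 ± 0.24 (adjusted p = 5.55e-09). Of 24 STAT3 target genes 7 rose and 3 fell, and of 14 feedback inhibitors 5 rose and 2 fell, Socs3 among those that rose (1.83 ± 0.24, adjusted p = 2.46e-06). Of the 23 antiviral genes, all higher with Osm, 1 rose, 10 fell and 12 did not pass with injury, and of 15 interferon-inducible GTPases 7 fell and 8 did not pass. Among these Ifit1 (-0.70, adjusted p = 0.0631) and Igtp (-0.34, adjusted p = 0.326) did not pass, and Trim30a and Gbp2 fell with injury (log2 changes -1.68 and -1.23). Of 16 Hedgehog and Notch genes 12 fell and 1 rose. Of 25 collagens and matrix proteins 18 fell with injury and 2 rose, Col3a1 among those that fell (-2.45 ± 0.62, adjusted p = 0.003). Meox2 fell in both settings (-1.62 ± 0.39 with injury, adjusted p = 0.00196), and Ccl11, higher with Osm, fell with injury (-1.94). No test was made of the difference between the injury and Osm responses, which come from separate fits.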

How the data were processed

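Raw counts for 55011 gene symbols in every library of the series were deposited by the authors as 1 table; per the submitters' processing notes, STAR 2.7.3a, featureCounts and GRCm38 (mm10) were used. For the counting annotation and the strand setting the sources used here give nothing, so reads of genes that overlap on opposite strands may not be told apart. Groups came from the labels.

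The 21 MmSC libraries of the cytokine experiment, with 4774571 to 8408842 counts each, were fitted together in edgeR 4.0.16 (limma 3.58.1, R 4.3.3): filterByExpr with a minimum count of 10 kept 15965 genes, TMM set the scaling, and contrasts of the 11 groups were tested with the quasi-likelihood F-test, Benjamini-Hochberg adjusted over all genes tested and called at an adjusted p of 0.05. The 4 tests of Osm share no library but share 1 estimate of the spread. The 24 libraries of sorted cells around injury were fitted in the same way (16374 genes tested). An SE is the absolute log2 change over the square root of F. Where PBS libraries held 0 counts, a fold was set against a floor of 3 counts per library; with 1 to 3 counts the ratio has an exact 95% interval that covers counting error only. The procedure was tested on simulated data.

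Both groups had replicates that differed by more than counting noise (chi-square per degree of freedom 8.25 for Osm and 6.33 for PBS), so none was merged. Coordinates came from GENCODE M21 by symbol, and promoters from a RefSeq table (GRCm38.p6, 27025 symbols, the first start used for the 4163 with more than 1), which matched 11025 of the genes tested.

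The comparison and the 37 gene lists were chosen with earlier results of these data known. Genes were named by rule: among called genes whose average log2 CPM reached 3 and whose groups did not overlap, the 15 highest and 15 lowest, all members of the receptor, ligand, JAK-STAT and feedback lists, and up to 6 members of every other list by smallest p. From the first set the most familiar genes are given in the text, and further list members, among them most of those that did not pass, were added after their values were seen; a few genes that the rule covers are not reported here. Alternatives were DESeq2 1.42.0, its size factors, no filter, a minimum count of 50, the replicate number as a block, fits of fewer groups, a tested fold of 2, Il-17A libraries in place of PBS, and leaving out each library.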

Additional observations from a re-analysis of the deposited data

Results flagged for a closer look

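The effect of Osm beside Il-17A (Osm with Il-17A over Il-17A alone) was tested against the effect of Osm over PBS for 195 of the genes named here, and 19 differed at an adjusted p of 0.05 in edgeR's quasi-likelihood test of the interaction, adjusted over all genes tested. The value given for each is the first log2 effect minus the second.

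In 5 genes the value was negative. They were Ccl7 (-3.43), Ccl2 (-2.21), Cxcl1 (-1.50) and Ccl11 (-1.40), all chemokines, and the chaperone Hspa8 (-1.06). Ccl2 had a log2 change of -2.16 beside Il-17A and 0.05 against PBS.

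In 14 genes the value was positive. For Socs1 (2.36), Adamts4 (2.04), Errfi1 (1.48), a feedback inhibitor of the EGF receptor, and the nucleolar Fbl (1.80), the log2 change with Osm was larger beside Il-17A than against PBS. Fbl had a log2 change of 1.81 beside Il-17A and 0.01 against PBS. For Adamts4 the levels with Osm and Il-17A (241 and 242 CPM) were near those with Osm alone (218 and 246 CPM). Its levels with Il-17A alone (5.07 and 11.9 CPM) were below those with PBS (19.5 and 48.8 CPM). Rnf187 (4.41), Hes1 (3.48), Npas2 (3.40), Rac1 (3.19), Ccdc102a (3.10), Phlda3 (2.77), Eif3f (2.66), Gm10800 (1.87), Map2k2 (1.77) and Mmp14 (0.99) were lower with Osm than with PBS and less so, or not, beside Il-17A. The PBS and mix libraries also differ from the others in their share of Gm10800, and the part of that difference in these values was not tested.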

How the results depend on the processing

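The number of genes changed by Osm against PBS was 5482, and 3995 to 4288 when 1 of the 4 libraries was left out. DESeq2's Wald test gave 5323 (2789 higher, 2534 lower). Testing for a change over 2-fold left 1379 (824 higher, 555 lower). The labels do not say what a replicate number marks. Between Osm and PBS the replicate differences had a correlation of 0.0671, and other groups were not compared in this way. With the replicate number as a block, 5541 genes passed (3038 higher, 2503 lower). Leaving out 1 library gave 3027 to 3589 genes beside Il-17A, 1817 to 2154 beside TNFa, 522 to 1219 beside Il-1b, 1010 to 1515 for Osm against Il-1b, 1765 to 2039 against TNFa, 2763 to 3143 against Il-17A, 5430 to 6272 for injury, and 109 to 330 for the difference between the effects with and without Il-17A (409 with all libraries). That difference had 670 genes with no filter and 722 in DESeq2. Osm beside Il-1b had 1122 genes in the main fit and 411 when only those 2 groups were fitted. Shared by both fits were 290 higher and 107 lower calls. The cause of these shifts was not tested. A lone library left in a group was assumed to vary like the other groups.

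The median log2 change of all genes was -0.0529, and -0.0986 with DESeq2's size factors, where 51.6% of the calls were higher in place of 55%.

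Set against Il-17A libraries instead of PBS, 2006 of the 3014 higher and 1385 of the 2468 lower calls were made again, and these log2 changes took the opposite sign: Ccl2 -2.12, Cxcl5 -2.81, Il27 -2.22, Cxcl1 -0.53, Irf1 -0.04, Stat5b 0.03, Socs4 0.09, Pkm 0.16, Vegfa 0.36, Col1a1 0.37, Col3a1 0.58, Fosb 0.67 and Gm10800 0.68. Cxcl3 and Tgtp1, with no count in the Osm and PBS libraries, were at 0.00. Of those that changed sign, Cxcl1 and Gm10800 had passed against PBS. Reversals elsewhere were in genes that had not passed: Ccl2 (-0.00 with a minimum count of 50, -0.06 with the replicate block), Cxcl3 (0.01) and Tgtp1 (-0.02) with the replicate block, and Fbl (-0.03 with DESeq2's size factors, -0.03 in DESeq2, -0.01 with no filter, -0.04 with a minimum count of 50). Leaving out 1 library moved the log2 change to or across 0 for Ccl2 (-0.39 to 0.43), Cxcl5 (-4.21 to 1.50), Dusp1 (-0.17 to 0.54), Fbl (-0.11 to 0.10), Fosb (-0.77 to 0.14), Gapdh (-0.13 to 0.30), Hspa1a (-1.56 to 0.07), Il27 (0.00 to 4.00), Il6ra (-0.17 to 0.33), Pdgfra (-0.00 to 0.14), Saa3 (-0.30 to 5.29) and Socs1 (-0.50 to 0.49).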

Other observations

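Other gene groups changed less evenly with Osm, and these were read after their values were known. Of 9 genes that glucocorticoids are known to induce, 5 rose and 2 fell against PBS (2 rose without PBS replicate 2 and 3 without Osm replicate 2). Beside Il-17A 5 of the 9 rose and 0 fell, beside TNFa 1 rose and 4 fell, and beside Il-1b 1 rose and 3 fell. Against PBS, Errfi1, a feedback inhibitor of the EGF receptor, rose (log2 change 1.50 ± 0.24, adjusted p = 6.19e-05 in edgeR). Fkbp5, a co-chaperone of the glucocorticoid receptor, had a log2 change of 0.68 ± 0.19 (adjusted p = 0.00848), a call lost without PBS replicate 2 (adjusted p = 0.174) or Osm replicate 2 (0.118). Of 14 p53 target genes, 1 rose and 5 fell (2 fell without PBS replicate 1 and 1 without Osm replicate 1). Of 13 lipid storage and adipogenic genes tested, 2 rose and 1 fell, Lipg and G0s2 among them.

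Both Osm libraries lay below the other 19 libraries of the experiment for 205 genes (1.28%) and above them for 152 (0.952%). Among the other groups of 2 libraries these counts ran from 51 to 1172 and from 78 to 984. For the PBS libraries they were 1172 (7.34%) and 870 (5.45%), so PBS stood apart from all other libraries for more genes than Osm did. How many calls of Osm against PBS rest on this was not tested. The largest gap on the log2 scale was that of Iscu, a scaffold for iron-sulphur clusters, at 10.6 CPM in the higher Osm library and 28.2 CPM in the lowest other library. Translation factor subunit Eif3f had 54.6 and 37.6 CPM in Osm libraries, against 228 and 233 CPM in PBS libraries, and 118 CPM in the lowest other library. The kinase Map2k2 had 34.2 and 25.8 CPM in Osm libraries, against 108 and 95.7 CPM in PBS libraries, and 70.7 CPM in the lowest other library. At the other end Cdkn2d, a cyclin-dependent kinase inhibitor, stood at 53.4 CPM in the lower Osm library and 36.6 CPM in the highest other one, and Bhlhe40, a clock-related repressor, at 367 and 296 CPM.

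The Osm libraries differed over 4-fold from each other, with at least 10 CPM in 1 of them, for 4 genes: Csf2rb, Saa3, Fam180a (1.29 and 12.6 CPM) and Mcm2 (10.1 and 1.69 CPM). For the PBS libraries 12 genes did so.

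TTCNNNGAA starting 11 bases before the paired GAAA, the spacing seen in the printed promoters of Igtp, Irgm2 and Tgtp2, stood in 5 of all 27025 promoters (0.0185%): those 3, Tgtp1 and Gm12185, of which Gm12185 also rose with Osm and Tgtp1 had no count in the 4 libraries. The spacing was chosen after the sequences were seen, and near-copies of 1 family share it.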
